A study of Mus musculus with 12 samples.

Results

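The genes that write, erase, read and move chromatin marks were followed through the activation of macrophages by bacterial lipopolysaccharide and its inhibition by a cell-penetrating peptide. They were chosen by symbol, as every protein-coding gene of the expression table in the Kdm, Kmt, Setd, Ezh, Kat, Hdac, Brd, Smarc, Chd, Arid, Tet and Dnmt families, which gave 102 of 23959 genes. Of these, 95 reached at least 0.5 FPKM (fragment counts scaled to transcript length and to library size) in at least 3 libraries and were tested. The other 7 genes (Arid3c, Chd5, Dnmt3b, Hdac11, Kdm4d, Smarcd3 and Tet1) had group means of at most 0.454 FPKM in all 4 groups. Another 5 symbols of the same families (Smarce1-ps1, Smarca5-ps, Kdm4dl, Dnmt3aos and Kat2b-ps) are pseudogenes or a long noncoding RNA in the table and were not members. Brd3os, which by its name lies opposite Brd3, is annotated there as protein coding and was kept.

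The cells were bone marrow-derived macrophages (BMDMs) of wild-type C57BL/6J mice, grown for 7 days with 20 ng/ml M-CSF, the growth factor that turns marrow precursors into macrophages. Each of 4 groups had 3 RNA sequencing libraries. The control group had no treatment and was labelled 0 h. The LPS group received 200 ng/ml LPS for 2 h, and in 2 further groups the same LPS treatment followed 1 h of pretreatment with cpTLR-i at a dose of 1 μM or 10 μM. cpTLR-i joins a cell-penetrating sequence to a stretch of the TIR domain of TIRAP, the adaptor that links Toll-like receptor 4 to its downstream kinases. No group with the peptide alone and no untreated group at 2 h was analysed here. An effect of LPS therefore cannot be told apart from one of time or handling in these libraries. Nothing in the labels tells if replicate libraries were made from different animals or dishes. The p-values reported here reflect library-to-library spread alone, which may be technical.

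DNA in the nucleus is wrapped around histones, and the chemical state of histone tails and of cytosine bases sets how open a gene is. Kat enzymes add acetyl groups and Hdac enzymes remove them, Kmt, Setd and Ezh enzymes add methyl groups to lysines and Kdm enzymes remove them, and bromodomain (Brd) proteins bind acetylated lysines. Smarc, Chd and some Arid proteins belong to machines that slide or evict nucleosomes with the energy of ATP. Dnmt enzymes methylate cytosine and Tet enzymes oxidize the methyl group. In macrophages, LPS acts through Toll-like receptor 4 to switch on inflammatory genes within hours, a response in which acetylation readers and demethylases such as Kdm6b are well known.

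Promoter sequence was read for the members with the largest rise and fall among those with a RefSeq promoter entry. Arid5a (Entrez gene 214855, chr1:36307733-36324037) had the largest rise with LPS and the largest fall with 10 μM cpTLR-i, Kmt5c (Entrez gene 232811, chr7:4740092-4747514) the largest fall with LPS, and Dnmt3a (Entrez gene 13435, chr12:3801559-3914443) the largest rise with 10 μM cpTLR-i. The stretches run from 120 to 35 bases before a RefSeq transcription start in build GRCm38.p6, on the plus strand of chr1:36307613-36307698, chr7:4740007-4740092 and chr12:3891624-3891709. For Dnmt3a, which has 3 promoter entries, the one shown is the only entry with a CACGTG. Capitals mark CCAAT and TGACG in the first 2 stretches and CACGTG in the third.
Arid5a: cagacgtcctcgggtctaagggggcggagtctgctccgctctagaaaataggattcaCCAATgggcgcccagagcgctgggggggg
Kmt5c: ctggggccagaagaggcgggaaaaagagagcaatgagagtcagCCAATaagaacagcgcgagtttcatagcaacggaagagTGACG
Dnmt3a: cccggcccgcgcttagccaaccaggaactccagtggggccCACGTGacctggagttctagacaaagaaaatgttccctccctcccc
Of the 102 members, 80 matched the RefSeq table, with 113 promoters of 300 bases (250 before to 50 after the start). On either strand, CCAAT was in 33.6% of the members' promoters, in 37.4% of all 32851 promoters and in 38.0% of those of the tested genes. In the same order, TGACG, the core of a cyclic AMP response element, was in 27.4%, 20.8% and 31.6%, and CACGTG, the E-box, in 5.3%, 7.2% and 10.3%. TGANTCA, the AP-1 site, was in 8.8%, 7.8% and 5.3%, and the NF-kB site in 9.7%, 8.5% and 10.2%. TATAAA was in 4.4%, 13.6% and 7.3%, and the full element TGACGTCA, which contains TGACG on both strands, in 0 of 113, 1.8% and 3.0%. The members' promoters were rich in CpG, with a median observed to expected ratio of 0.822 and 64.0% G and C. The medians were 0.384 and 52.7% over all promoters, but 0.761 and 60.3% over the promoters of the tested genes. The base composition of the members' promoters was therefore nearer to that of expressed genes in these macrophages than to that of the whole table.

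The libraries were alike in total FPKM, a unit already scaled to library size, but less so in make-up. Their FPKM summed to 403473 to 422014, and no 2 libraries were identical. Replicates correlated at r = 0.9952 to 0.9967 on the log2 scale across genes, which are not independent replicates. Genes at 1 FPKM or more numbered 10867 to 10905 per control library and 10144 to 10169 per LPS library. The median ratio of a library's genes to those of the others was 1.15 to 1.16 in control and 0.888 to 0.895 with LPS. Read totals are not used here, so the depth behind each value is unknown. The 8 macrophage markers (Lyz2, Csf1r, Adgre1 and others) were all above 1 FPKM in every group and summed to 12179 to 14890 FPKM, while the 4 stromal markers summed to at most 0.23 FPKM, the 5 dendritic cell markers to at most 1.10 FPKM and the 7 T and B cell markers, of which 6 were in the table, to at most 2.68 FPKM. The 8 neutrophil markers had sums of 13.1 to 16.1 FPKM for control libraries, 34.8 to 35.5 after LPS, 28.6 to 33.2 for the 1 μM dose and 40.6 to 54.1 for the 10 μM dose, of which S100a8 and S100a9 held the highest levels and Ly6g was at 0 in the control and 10 μM groups. The 10 proliferation markers had sums of 376 to 380 FPKM for control libraries, 304 to 318 after LPS, 313 to 330 for the 1 μM dose and 338 to 354 for the 10 μM dose. The part of these shifts in the values that follow was not tested. In bulk RNA, fewer cells of a type and less RNA per cell cannot be told apart.

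The members were expressed genes throughout. At least 1 FPKM was reached by 93 to 94 of them per control library, 89 with LPS, 90 with 1 μM and 92 with 10 μM cpTLR-i. Brd2, a reader of acetylated histones, and Chd4, the ATPase of the NuRD complex, had the highest and second highest mean FPKM of all members in the LPS, 1 μM and 10 μM groups, and the second highest and highest in control. Chd4 measured 48.7, 49.3 and 50.2 FPKM in the control libraries, 69.0, 71.1 and 71.5 with LPS, 78.0, 74.0 and 77.2 with LPS and 1 μM cpTLR-i and 53.3, 54.4 and 57.4 with LPS and 10 μM cpTLR-i. Its libraries were higher with LPS than in control without overlap, but its log2 fold change of 0.51 ± 0.03 (SE, adjusted p = 1e-08) did not pass the 1.5-fold minimum. A gene was called changed at a Benjamini-Hochberg adjusted p under 0.05 in limma's test together with a change of more than 1.5-fold, both on log2(FPKM + 0.25), a scale that understates the change of low genes.

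Many more of these genes were lower than higher after LPS. Against control, 7 of 95 members rose (7.37%) and 47 fell (49.5%), while 11% of all 12315 tested genes rose and 35.8% fell. The median log2 fold change was -0.58 over the members and -0.39 over all tested genes. That shift of the whole table depends on scaling. When each library was scaled by the median ratio to the others, 15 members rose and 24 fell, beside 1968 and 2472 of all genes. With quantile normalization 10 rose (10.5%) and 22 fell (23.2%), beside 14.7% and 19.7% of all genes. All 7 that rose as deposited rose under both scalings, and of the 47 that fell, 21 fell under both (Arid1b, Arid3a, Arid3b, Brd3, Brd3os, Dnmt1, Dnmt3a, Ezh2, Hdac5, Hdac7, Kat14, Kat6b, Kat8, Kdm2b, Kdm3a, Kdm4b, Kmt2c, Kmt5c, Setd4, Setd7 and Tet3). The rest of the 47 were lost under 1 or both scalings. How many of all tested genes fell on every scale was not counted. No member was called in opposite directions by the deposited and the median-ratio scales.

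With 10 μM cpTLR-i before LPS, 20 members were higher than with LPS alone (21.1%) and 9 were lower (9.47%), close to the 21.5% and 9.44% of all tested genes. The median log2 fold change was 0.25 over the members and 0.22 over all genes. With median-ratio scaling 14 were higher and 14 lower, beside 1699 and 1488 of all genes. With quantile normalization 12 were higher (12.6%) and 11 lower (11.6%), beside 13.4% and 11.5% of all genes. Calls that held on every scale were counted for the members alone, not for all genes. Under all 3 scales 12 members were higher (Arid3b, Dnmt1, Dnmt3a, Hdac4, Kat14, Kat6b, Kat8, Kdm2a, Kdm3a, Kdm6b, Setd4 and Tet3) and 8 were lower (Arid1a, Arid4a, Arid5a, Arid5b, Kdm4a, Kdm7a, Setd1b and Tet2).

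The 1 μM dose gave no call. Limma with Benjamini-Hochberg adjustment called 0 members higher and 0 lower than with LPS alone, and none passed at an unadjusted p under 0.05 with the fold minimum either. Of all tested genes, 0.495% were higher and 0.625% lower. Without the fold minimum, 21 members were higher (22.1%) and 5 lower (5.26%) by adjusted p, beside 14.6% and 4.36% of all genes. The largest of these differences were 0.50 ± 0.08 (SE, adjusted p = 0.0015) for Kdm5b, 0.48 ± 0.06 (SE, adjusted p = 0.00028) for Arid3a and -0.51 ± 0.09 (SE, adjusted p = 0.0021) for Arid5a, on the log2 scale. Hdac7, Arid4a and Kdm7a gave 0.40, -0.32 and -0.30. Between the doses, 16 members were higher and 8 lower with 10 μM than with 1 μM, that is 16.8% and 8.42%, beside 15.9% and 9.05% of all genes, and the medians were 0.18 and 0.17. Median-ratio scaling gave 11 and 10, beside 1389 and 1343 of all genes. Quantile normalization gave 10 and 10 (10.5% each), beside 10.7% and 10.5% of all genes. Against control, the 10 μM group had 3 members higher (3.16%) and 19 lower (20%), beside 8.57% and 17.1% of all genes, with medians of -0.28 and -0.17. There median-ratio scaling gave 6 and 14, beside 1379 and 1361 of all genes. Quantile normalization gave 6 (6.32%) and 12 (12.6%), beside 11% and 10.8% of all genes. Without the first 10 μM library 5 were higher (5.26%, beside 8.79%). The LPS group entered 3 of these comparisons and the control and 10 μM groups entered several, so the comparisons are not independent of each other and their values are given side by side.

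**Figure D1:**
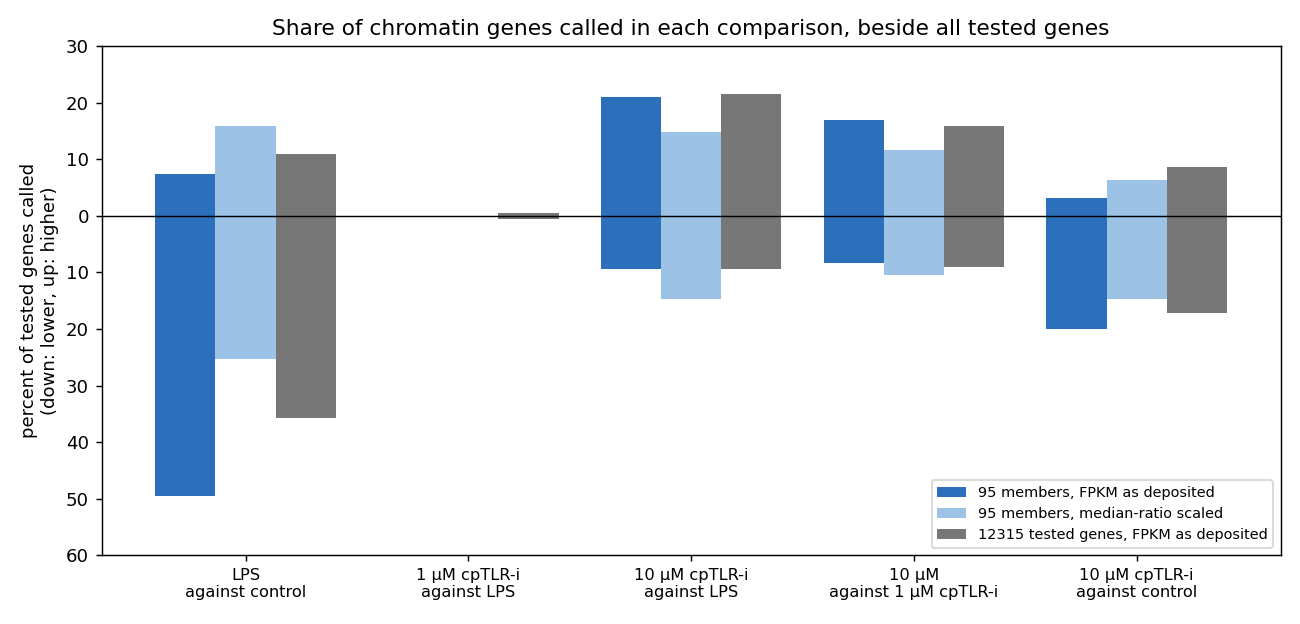
Percent of tested genes called higher (above 0) and lower (below 0) in each of the 5 comparisons, for the 95 members with FPKM as deposited (dark blue) and after median-ratio scaling (light blue), and for all 12315 tested genes as deposited (grey). With LPS, 49.5% of the members fell as deposited, above the 35.8% of all genes, whereas with 10 μM cpTLR-i against LPS the members and all genes were called at nearly the same percentages.

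**Figure D2:**
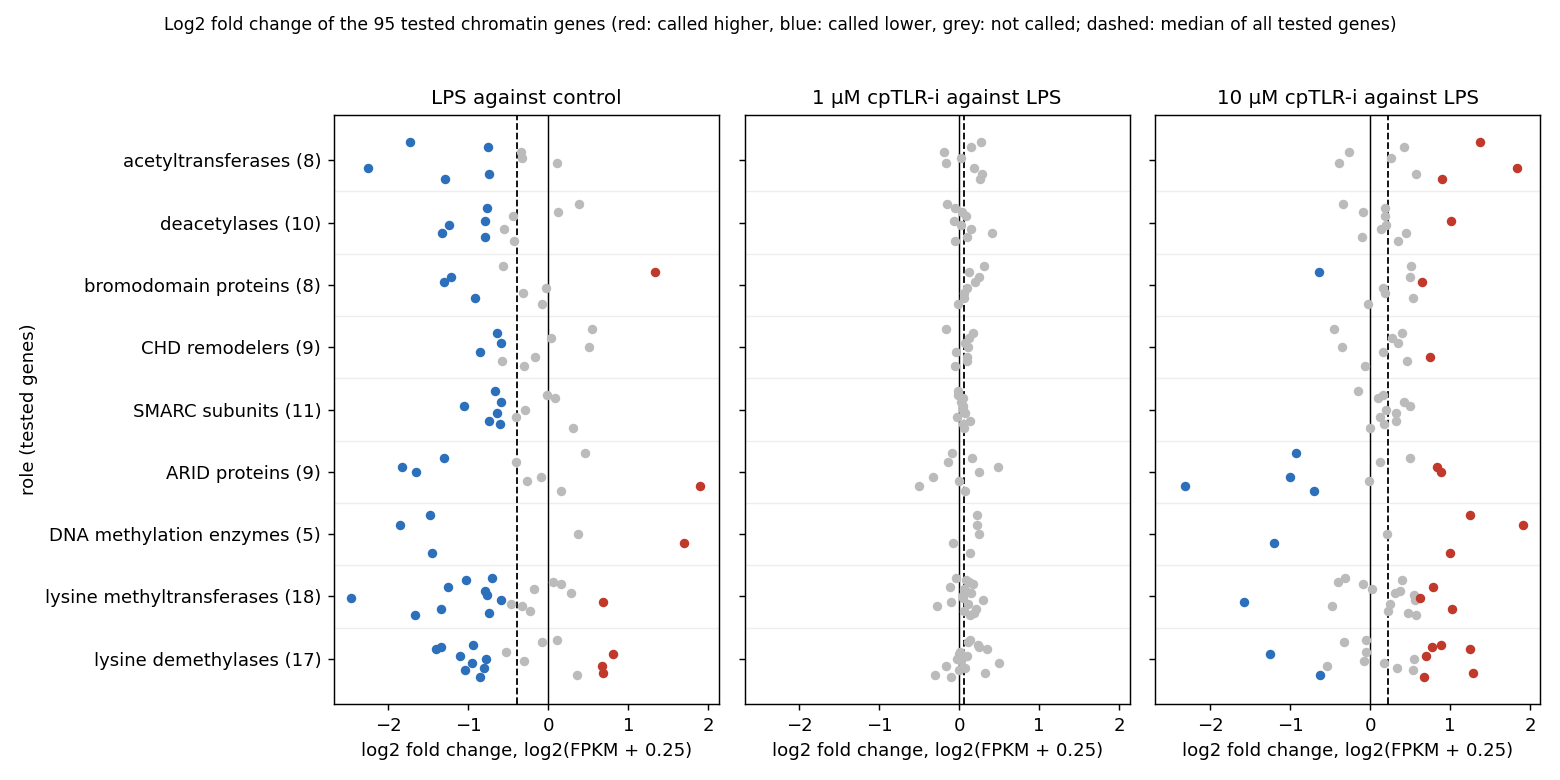
Log2 fold change (x axis, on log2(FPKM + 0.25)) of each of the 95 tested members by role (y axis) for LPS against control, 1 μM cpTLR-i against LPS and 10 μM cpTLR-i against LPS; red points were called higher, blue lower and grey not called, and the dashed line is the median of all tested genes. In the middle panel all points are grey and within 0.51 of 0, and in the left panel most points lie below 0.

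The enzymes of DNA methylation included several of the largest changes. Of 5 tested, 1 rose with LPS (20%) and 3 fell (60%), beside 11% and 35.8% of all tested genes. With 10 μM cpTLR-i 3 were higher than with LPS alone (60%) and 1 was lower (20%), beside 21.5% and 9.44%. Dnmt3a, which sets new methylation, measured 37.5, 36.6 and 37.0 FPKM in the control libraries, 10.0, 10.4 and 9.87 with LPS, 11.8, 11.7 and 11.9 with LPS and 1 μM cpTLR-i and 35.9, 38.2 and 42.0 with LPS and 10 μM cpTLR-i. The LPS and 1 μM libraries were all below the control and 10 μM libraries, and the control and 10 μM libraries overlapped. It fell with LPS at 0.272 times the control level, a log2 fold change of -1.85 ± 0.05 (SE, adjusted p = 5.8e-13), and 10 μM cpTLR-i was above LPS by 1.91 ± 0.05 (SE, adjusted p = 7.7e-13). Against control the 10 μM group differed by 0.06 ± 0.05 (SE, adjusted p = 0.27), which was not called. The table also holds Dnmt3aos, named as its opposite-strand RNA. Whether fragments were assigned by strand is not given in the sources used here, so reads of Dnmt3a and Dnmt3aos cannot be told apart.

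Dnmt1, which copies methylation onto new DNA strands and is known to follow cell division, measured 29.8, 29.1 and 31.2 FPKM in the control libraries, 10.9, 10.5 and 10.4 with LPS, 12.9, 12.6 and 11.8 with LPS and 1 μM cpTLR-i and 24.6, 25.7 and 26.6 with LPS and 10 μM cpTLR-i. Here too the LPS and 1 μM libraries were the low ones, with no overlap with the others. The log2 fold changes were -1.48 ± 0.05 (SE, adjusted p = 3.5e-12) for LPS against control and 1.25 ± 0.05 (SE, adjusted p = 3.2e-11) for 10 μM against LPS. The summed 10 proliferation markers were lower with LPS (304 to 318 FPKM) and 1 μM (313 to 330) than in control (376 to 380), with overlap between the first 2, and their part in the Dnmt1 values was not tested.

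The Tet enzymes moved in opposite directions. Tet2 (Entrez gene 214133, chr3:133463677-133545136) measured 4.52, 4.59 and 5.25 FPKM in the control libraries, 15.7, 16.3 and 16.2 with LPS, 14.7, 15.5 and 15.2 with LPS and 1 μM cpTLR-i and 6.87, 7.37 and 6.32 with LPS and 10 μM cpTLR-i. All LPS and 1 μM libraries were above all control and 10 μM libraries. The rise with LPS was 3.36-fold, a log2 fold change of 1.70 ± 0.06 (SE, adjusted p = 2.4e-11), and 10 μM cpTLR-i differed from LPS by -1.20 ± 0.06 (SE, adjusted p = 1.4e-09). Tet3 (Entrez gene 194388, chr6:83362373-83457208) measured 10.7, 10.2 and 11.1 FPKM in the control libraries, 3.87, 3.63 and 3.69 with LPS, 4.12, 4.01 and 4.21 with LPS and 1 μM cpTLR-i and 7.45, 7.74 and 7.94 with LPS and 10 μM cpTLR-i. It was lowest with LPS, and every control library was above every 10 μM library. Its log2 fold changes were -1.46 ± 0.05 (SE, adjusted p = 7.2e-12) for LPS against control and 1.00 ± 0.05 (SE, adjusted p = 5.6e-10) for 10 μM against LPS. Tet1 was near 0 in all groups and was not tested, and Dnmt3l, a cofactor without catalytic activity, had group means of 0.431 to 0.792 FPKM.

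Among the lysine methyltransferases, grouped by symbol, 1 of 18 rose with LPS (5.56%) and 10 fell (55.6%), beside 11% and 35.8% of all tested genes. Of these 10 falls, those of Ezh1, Kmt2e, Kmt5b, Setd1a and Setd6 were lost after median-ratio scaling. On that scale 20.1% of all tested genes fell. With 10 μM cpTLR-i 3 were higher than with LPS alone (16.7%) and 1 was lower (5.56%), beside 21.5% and 9.44%. The enzyme that rose was Setd1b (Entrez gene 208043, chr5:123142040-123168630), a catalytic subunit of a COMPASS complex that methylates histone H3 at its lysine 4. It measured 7.94, 8.05 and 8.10 FPKM in the control libraries, 13.1, 12.9 and 13.0 with LPS, 11.9, 12.4 and 11.9 with LPS and 1 μM cpTLR-i and 4.04, 4.23 and 4.37 with LPS and 10 μM cpTLR-i. The 10 μM libraries were the lowest of the 12, below those of the control group. It rose with LPS by 0.68 ± 0.04 (SE, adjusted p = 3e-09) on the log2 scale, and 10 μM cpTLR-i differed from LPS by -1.57 ± 0.04 (SE, adjusted p = 9.6e-13) and from control by -0.89 ± 0.04 (SE, adjusted p = 5.8e-10). Its partner gene Setd1a, with the same activity, measured 7.91, 7.53 and 7.37 FPKM in the control libraries, 4.85, 4.95 and 5.05 with LPS, 6.18, 6.02 and 6.15 with LPS and 1 μM cpTLR-i and 7.26, 7.65 and 7.47 with LPS and 10 μM cpTLR-i. For Setd1a the LPS libraries were the low ones, with a log2 fold change of -0.59 ± 0.04 (SE, adjusted p = 2.6e-08) against control that was not called after median-ratio scaling.

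Kmt5c, which places trimethyl marks on histone H4 in heterochromatin, had the largest fall of all members. It measured 12.7, 12.5 and 14.7 FPKM in the control libraries, 2.02, 2.19 and 2.39 with LPS, 2.23, 2.39 and 2.23 with LPS and 1 μM cpTLR-i and 3.68, 3.65 and 3.22 with LPS and 10 μM cpTLR-i. Control libraries stood above all 9 others, and the 10 μM libraries lay between control and the LPS and 1 μM libraries. The log2 fold changes were -2.46 ± 0.08 (SE, adjusted p = 4.6e-12) with LPS and 0.62 ± 0.08 (SE, adjusted p = 8.8e-06) for 10 μM against LPS, the second of which was not called after median-ratio scaling. Kmt5a, which adds the first methyl group at the same lysine, was higher with 10 μM than in control by 0.60 ± 0.04 (SE, adjusted p = 3.5e-08). That value lay just past the fold minimum and was lost without the second control library (0.56) or the third 10 μM library (0.57).

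Setd7, a monomethyltransferase of histones and other proteins, measured 16.1, 14.7 and 16.1 FPKM in the control libraries, 4.64, 4.73 and 4.87 with LPS, 5.56, 5.27 and 4.93 with LPS and 1 μM cpTLR-i and 6.91, 7.16 and 7.48 with LPS and 10 μM cpTLR-i. All 9 LPS-treated libraries were below all control libraries. It fell with LPS by 1.67 on the log2 scale (adjusted p = 7e-12), and the 10 μM group differed from control by -1.09 ± 0.05 (SE, adjusted p = 1.6e-09). The Polycomb enzymes Ezh1 and Ezh2, which methylate histone H3 at lysine 27, both fell with LPS as deposited, but the fall of Ezh1 was lost under both scalings (-0.35 and -0.49). Ezh1 measured 15.5, 15.4 and 15.7 FPKM in the control libraries, 9.02, 9.84 and 9.31 with LPS, 9.30, 8.96 and 9.21 with LPS and 1 μM cpTLR-i and 7.21, 7.26 and 8.08 with LPS and 10 μM cpTLR-i. It was lowest with 10 μM, which differed from LPS by -0.31 ± 0.05 (SE, adjusted p = 6.9e-05), under the fold minimum, and from control by -1.02 ± 0.05 (SE, adjusted p = 1.1e-09). Ezh2 measured 6.71, 6.77 and 7.44 FPKM in the control libraries, 3.26, 3.39 and 3.21 with LPS, 3.59, 3.50 and 3.41 with LPS and 1 μM cpTLR-i and 4.27, 4.36 and 4.62 with LPS and 10 μM cpTLR-i. Its LPS and 1 μM libraries were the lowest, with a log2 fold change of -1.03 ± 0.05 (SE, adjusted p = 9.8e-10) for LPS against control. Kmt2c, a methyltransferase of enhancers, was at 6.06 ± 0.26 FPKM (SD, n = 3) in control, 2.40 ± 0.046 with LPS, 2.20 ± 0.090 with 1 μM and 4.32 ± 0.20 with 10 μM, so that the LPS and 1 μM groups were low. It fell with LPS by 1.25 and was higher with 10 μM than with LPS by 0.79, the second of which was lost with quantile normalization (0.50), and Setd4 moved alike (-1.35 and 1.03) at levels near 1 FPKM or below. Setd3, known for methylating actin, had replicates that stood apart, at 20.6, 31.9 and 29.7 FPKM with LPS and 20.2, 18.1 and 30.0 with 1 μM, against 33.6, 33.7 and 34.7 in control and 19.5, 19.6 and 18.9 with 10 μM. The lowest LPS library lay close to the 10 μM libraries and the other LPS libraries near control. As deposited, only the difference between 10 μM and control was called (-0.81 ± 0.17 SE, adjusted p = 0.00079). After median-ratio scaling Setd3 was also called lower with 10 μM than with LPS.

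The lysine demethylases had the highest count of genes that rose with LPS, though not the highest share. Of 17 tested, 3 rose (17.6%, beside 20% of the DNA methylation enzymes) and 9 fell (52.9%). Among all tested genes 11% rose and 35.8% fell. Of the 9 falls, only those of Kdm2b, Kdm3a and Kdm4b held under all 3 scales. With 10 μM cpTLR-i 6 were higher than with LPS alone (35.3%) and 2 were lower (11.8%), beside 21.5% and 9.44% of all genes. Kdm6b (Entrez gene 216850, chr11:69398508-69420367), an eraser of methylation at lysine 27 of histone H3 that is known as an LPS-induced gene of macrophages, measured 2.73, 2.62 and 2.96 FPKM in the control libraries, 4.61, 4.69 and 4.50 with LPS, 5.73, 5.60 and 6.19 with LPS and 1 μM cpTLR-i and 12.2, 12.3 and 10.3 with LPS and 10 μM cpTLR-i. The 4 groups did not overlap and stood in the order control, LPS, 1 μM, 10 μM. The log2 fold change was 0.68 ± 0.07 (SE, adjusted p = 7.6e-07) with LPS, and 10 μM cpTLR-i was above LPS by 1.29 ± 0.07 (SE, adjusted p = 2.1e-09) and above control by 1.97 ± 0.07 (SE, adjusted p = 4.7e-11), a 4.19-fold difference in FPKM. The step from LPS to 1 μM, 0.33 ± 0.07 (SE, adjusted p = 0.0068), did not pass the fold minimum, and with a pseudocount of 1 the LPS effect of 0.57 did not either. Kdm6a, its X-linked partner, measured 4.84, 4.57 and 4.82 FPKM in the control libraries, 2.07, 2.25 and 2.22 with LPS, 2.16, 2.13 and 2.27 with LPS and 1 μM cpTLR-i and 2.84, 3.41 and 3.57 with LPS and 10 μM cpTLR-i. It was low with LPS and 1 μM, and fell with LPS by 1.04 on the log2 scale (adjusted p = 2.6e-08), a call lost with quantile normalization (-0.56).

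Kdm4a (Entrez gene 230674, chr4:118136957-118180090), a demethylase of lysines 9 and 36 of histone H3, measured 18.4, 18.2 and 18.9 FPKM in the control libraries, 32.2, 32.3 and 32.9 with LPS, 32.1, 32.5 and 32.3 with LPS and 1 μM cpTLR-i and 13.0, 13.2 and 14.2 with LPS and 10 μM cpTLR-i. The LPS and 1 μM libraries were high and overlapped each other, and the 10 μM libraries were below control. It rose with LPS by 0.80 ± 0.04 (SE, adjusted p = 2.6e-10) and 10 μM differed from LPS by -1.26 ± 0.04 (SE, adjusted p = 4.4e-12). The difference between 10 μM and control, -0.45 ± 0.04 (SE, adjusted p = 2.3e-07), was under the fold minimum. Kdm5c, a demethylase of lysine 4, measured 8.64, 8.89 and 8.55 FPKM in the control libraries, 12.7, 14.4 and 14.8 with LPS, 12.5, 12.3 and 12.5 with LPS and 1 μM cpTLR-i and 8.75, 9.39 and 10.5 with LPS and 10 μM cpTLR-i. It rose with LPS by 0.67 (adjusted p = 4.7e-07), and its difference of -0.54 ± 0.07 (SE, adjusted p = 5.9e-06) between 10 μM and LPS did not pass the fold minimum as deposited but did after median-ratio scaling. Kdm5b, with the same substrate, measured 2.90, 2.72 and 2.56 FPKM in the control libraries, 1.32, 1.27 and 1.26 with LPS, 2.04, 1.87 and 1.86 with LPS and 1 μM cpTLR-i and 1.42, 1.36 and 1.71 with LPS and 10 μM cpTLR-i. For this gene the 1 μM libraries were above both the LPS and the 10 μM libraries. Kdm5b fell with LPS by 0.95, which was lost with quantile normalization (-0.41).

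Kdm3a, a demethylase of lysine 9 known for its induction in low oxygen, measured 8.96, 8.34 and 9.07 FPKM in the control libraries, 3.14, 3.33 and 3.06 with LPS, 4.13, 4.20 and 4.03 with LPS and 1 μM cpTLR-i and 7.32, 8.13 and 8.35 with LPS and 10 μM cpTLR-i. Its LPS libraries were the lowest, its 1 μM libraries came next, and control and 10 μM overlapped. The log2 fold changes were -1.40 ± 0.06 (SE, adjusted p = 7.7e-11) with LPS and 1.26 ± 0.06 (SE, adjusted p = 3.8e-10) for 10 μM against LPS. Kdm2b, Kdm4b and Kdm8 also fell with LPS (-1.34, -1.10 and -0.86) and were higher with 10 μM than with LPS (0.77, 0.70 and 0.67). The calls of these 3 for 10 μM, and that of Kdm8 for LPS, were lost under both scalings. Kdm7a was not called with LPS as deposited (0.35), but was called higher after median-ratio scaling. It was lower with 10 μM than with LPS (-0.63), a call that was lost without the first 10 μM library (-0.55).

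Of 8 tested acetyltransferases, 0 rose with LPS and 5 fell (62.5%), beside 11% and 35.8% of all tested genes. At 11% few of so small a set would rise, so 0 is near that share. The falls of Kat2a and Kat7 were lost after median-ratio scaling. With 10 μM cpTLR-i 3 were higher than with LPS alone (37.5%) and 0 lower, beside 21.5% and 9.44% of all genes. Kat6b (Entrez gene 54169, chr14:21499216-21672478), which acetylates histone H3, measured 3.12, 3.02 and 3.49 FPKM in the control libraries, 0.489, 0.485 and 0.444 with LPS, 0.596, 0.634 and 0.482 with LPS and 1 μM cpTLR-i and 2.04, 2.50 and 2.48 with LPS and 10 μM cpTLR-i. The LPS and 1 μM libraries overlapped each other and were far below the rest, and the 10 μM libraries were below control. LPS left it at 0.147 times the control FPKM, a log2 fold change of -2.26 ± 0.10 (SE, adjusted p = 1.3e-10), and it was 4.96-fold higher with 10 μM than with LPS alone (1.84 ± 0.10 SE, adjusted p = 1.8e-09). Its relative Kat6a was at 10.1 ± 0.59 FPKM in control, 10.9 ± 0.24 with LPS, 9.75 ± 0.38 with 1 μM and 8.30 ± 0.42 with 10 μM. Kat6a was not called in any comparison as deposited, but was called lower with 10 μM than with LPS after median-ratio scaling. Kat14, a subunit of the ATAC acetyltransferase complex, measured 11.2, 10.7 and 11.4 FPKM in the control libraries, 3.12, 3.24 and 3.13 with LPS, 3.77, 3.80 and 4.03 with LPS and 1 μM cpTLR-i and 8.08, 8.43 and 9.41 with LPS and 10 μM cpTLR-i. Groups did not overlap and stood in the order LPS, 1 μM, 10 μM, control. It fell with LPS by 1.74 ± 0.06 (SE, adjusted p = 7.1e-12) and was above LPS with 10 μM by 1.38 ± 0.06 (SE, adjusted p = 1.2e-10). Kat8, the enzyme of histone H4 lysine 16, fell with LPS by 1.29 and was higher with 10 μM than with LPS by 0.90. Kat5 and Kat2b gave log2 fold changes of -0.33 and -0.34 with LPS, neither of them called.

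Of 10 tested deacetylases, 0 rose with LPS as deposited and 5 fell (50%), beside 11% and 35.8% of all tested genes. Here too 0 is near the 11% for so small a set. The falls of Hdac4, Hdac8 and Hdac10 were lost after median-ratio scaling. With 10 μM 1 was higher (10%) and 0 lower than with LPS alone, beside 21.5% and 9.44%. The class IIa enzymes Hdac4, Hdac5 and Hdac7, which shuttle between nucleus and cytoplasm, were among those that fell as deposited, and under both scalings Hdac5 and Hdac7 were still called while Hdac4 was not (-0.46 and -0.25). Hdac5 measured 28.1, 26.7 and 26.9 FPKM in the control libraries, 11.2, 11.1 and 11.7 with LPS, 11.7, 11.4 and 11.4 with LPS and 1 μM cpTLR-i and 13.3, 13.6 and 12.3 with LPS and 10 μM cpTLR-i. All 9 LPS-treated libraries were below all control libraries, and those with 10 μM cpTLR-i were just above those with LPS alone. It fell with LPS by 1.25 ± 0.04 (SE, adjusted p = 1.1e-11) and the difference of 0.20 ± 0.04 (SE, adjusted p = 0.00091) between 10 μM and LPS was under the fold minimum. Hdac4 measured 3.15, 2.88 and 3.09 FPKM in the control libraries, 1.70, 1.64 and 1.60 with LPS, 1.69, 1.33 and 1.70 with LPS and 1 μM cpTLR-i and 3.43, 3.70 and 3.55 with LPS and 10 μM cpTLR-i. Its 10 μM libraries were the highest of the 12, and the LPS and 1 μM libraries overlapped. The log2 fold changes were -0.79 ± 0.08 (SE, adjusted p = 7.5e-07) with LPS and 1.01 ± 0.08 (SE, adjusted p = 1.1e-07) for 10 μM against LPS. Hdac7 fell with LPS by 1.33 and Hdac8, a class I enzyme, by 0.79, which was lost under both scalings (-0.45 and -0.28). Against control, Hdac8 and Hdac7 were also lower with 10 μM (-0.89 and -0.88), under all 3 scales. Hdac1, Hdac2 and Hdac3, the class I enzymes of the main corepressor complexes, gave 0.38, 0.12 and -0.45, none of which was called as deposited, though Hdac1 was called higher after median-ratio scaling.

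Of the 8 tested genes with a Brd symbol, 1 rose with LPS (12.5%) and 3 fell (37.5%), beside 11% and 35.8% of all tested genes. Brd3os, 1 of the 3 that fell, was placed here by its symbol alone. The fall of Brd8 was lost after median-ratio scaling. Brd2 (Entrez gene 14312, chr17:34112019-34122814), a BET protein that binds acetylated histones, measured 48.3, 48.1 and 49.3 FPKM in the control libraries, 122, 122 and 123 with LPS, 133, 135 and 132 with LPS and 1 μM cpTLR-i and 79.5, 80.3 and 75.2 with LPS and 10 μM cpTLR-i. It had the highest level of any member with LPS, and the 4 groups did not overlap. It rose 2.52-fold with LPS, a log2 fold change of 1.33 ± 0.03 (SE, adjusted p = 1e-13), and was lower with 10 μM than with LPS (-0.64 ± 0.03 SE, adjusted p = 3.1e-10) but above control (0.69 ± 0.03 SE, adjusted p = 3e-10). With quantile normalization the difference between 10 μM and LPS was -0.55 and under the fold minimum. Brd3 fell with LPS from 8.29 ± 0.55 to 3.40 ± 0.15 FPKM (-1.22), and Brd3os fell by 1.30.

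No Smarc or Chd remodeler was called higher with LPS as deposited. At the 11% of all tested genes, only a few of these would be. Of 11 tested Smarc genes, 0 rose and 6 fell with LPS (54.5%, beside 35.8% of all genes). For 10 μM against LPS limma called 0 of them in either direction, beside 21.5% higher and 9.44% lower of all genes. Smarca4, the ATPase BRG1 of the SWI/SNF (BAF) complex, measured 27.6, 26.0 and 29.9 FPKM in the control libraries, 28.2, 27.3 and 26.7 with LPS, 25.9, 26.4 and 28.7 with LPS and 1 μM cpTLR-i and 30.3, 30.3 and 31.0 with LPS and 10 μM cpTLR-i. Control, LPS and 1 μM libraries overlapped, with a log2 fold change of -0.02 ± 0.05 (SE, adjusted p = 0.68) for LPS. Smarca2, the alternative ATPase BRM, fell with LPS by 0.67 and was below control with 10 μM by 0.82. The 6 falls included Smarca2, Smarcad1, Smarcc1, Smarcd1 and Smarcd2, all of which were lost under both scalings, and Smarcal1, which was lost with quantile normalization (-0.53). Smarce1 was called higher with LPS after median-ratio scaling (0.67, and 0.30 as deposited). Of 9 Chd genes, 0 rose and 3 fell with LPS (33.3%, beside 35.8% of all genes). The falls were those of Chd1l, Chd3 and Chd6, also lost under both scalings. Chd7 was the only Chd gene called higher with 10 μM than with LPS (11.1%, beside 21.5% of all genes). It was at 2.33, 2.43 and 2.59 against 1.33, 1.48 and 1.27 FPKM (0.74 ± 0.07 SE, adjusted p = 4.9e-07), a call likewise lost. Chd1 was called higher with LPS under both scalings (0.90 and 0.87, and 0.54 as deposited), and Chd4 after median-ratio scaling alone (0.88, and 0.51 as deposited).

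The Arid genes were mixed. Of 9 tested, 1 rose (11.1%) and 3 fell (33.3%) with LPS, beside 11% and 35.8% of all tested genes. With 10 μM cpTLR-i 2 were higher (22.2%) and 4 lower (44.4%) than with LPS alone, beside 21.5% and 9.44%. Arid5a, known in mouse macrophages for binding and stabilizing Il6 mRNA, measured 2.29, 2.33 and 2.52 FPKM in the control libraries, 8.12, 10.9 and 9.66 with LPS, 6.66, 6.97 and 6.22 with LPS and 1 μM cpTLR-i and 1.67, 1.75 and 1.72 with LPS and 10 μM cpTLR-i. The LPS libraries were the highest, the 1 μM libraries came next, and the 10 μM libraries were below those of the control group. It rose 4.02-fold with LPS, a log2 fold change of 1.89 ± 0.09 (SE, adjusted p = 2.6e-10), and 10 μM cpTLR-i was at 0.179 times the LPS level (-2.31 ± 0.09 SE, adjusted p = 5.2e-11). The 1 μM group was at 0.691 times the LPS level, and passed the fold minimum only without the first LPS library (-0.62). Arid1a, a DNA-binding subunit of the BAF complex, measured 16.4, 17.0 and 16.7 FPKM in the control libraries, 23.6, 22.4 and 23.1 with LPS, 21.8, 22.1 and 21.1 with LPS and 1 μM cpTLR-i and 11.8, 12.4 and 11.7 with LPS and 10 μM cpTLR-i. The 10 μM libraries were the lowest, and the difference from LPS was -0.93 ± 0.04 (SE, adjusted p = 7.9e-11). Arid4a, which binds the retinoblastoma protein, measured 7.64, 7.71 and 8.06 FPKM in the control libraries, 6.69, 7.66 and 7.50 with LPS, 5.63, 5.93 and 5.72 with LPS and 1 μM cpTLR-i and 3.02, 3.62 and 3.94 with LPS and 10 μM cpTLR-i. Control and LPS overlapped and the 10 μM libraries were the lowest, at 0.484 times the LPS level (adjusted p = 1.1e-07) and with a log2 fold change of -1.10 ± 0.08 (SE, adjusted p = 6.3e-08) against control. Arid5b was also lower with 10 μM than with LPS (-0.70). Arid3a and Arid3b, DNA-binding proteins known from B cell and germ layer development, fell with LPS by 1.83 and 1.65 and were higher with 10 μM than with LPS by 0.84 and 0.88, the first of which was lost with quantile normalization (0.58). Arid1b fell with LPS (-1.31) and was not called for 10 μM against LPS (0.50).

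**Figure D3:**
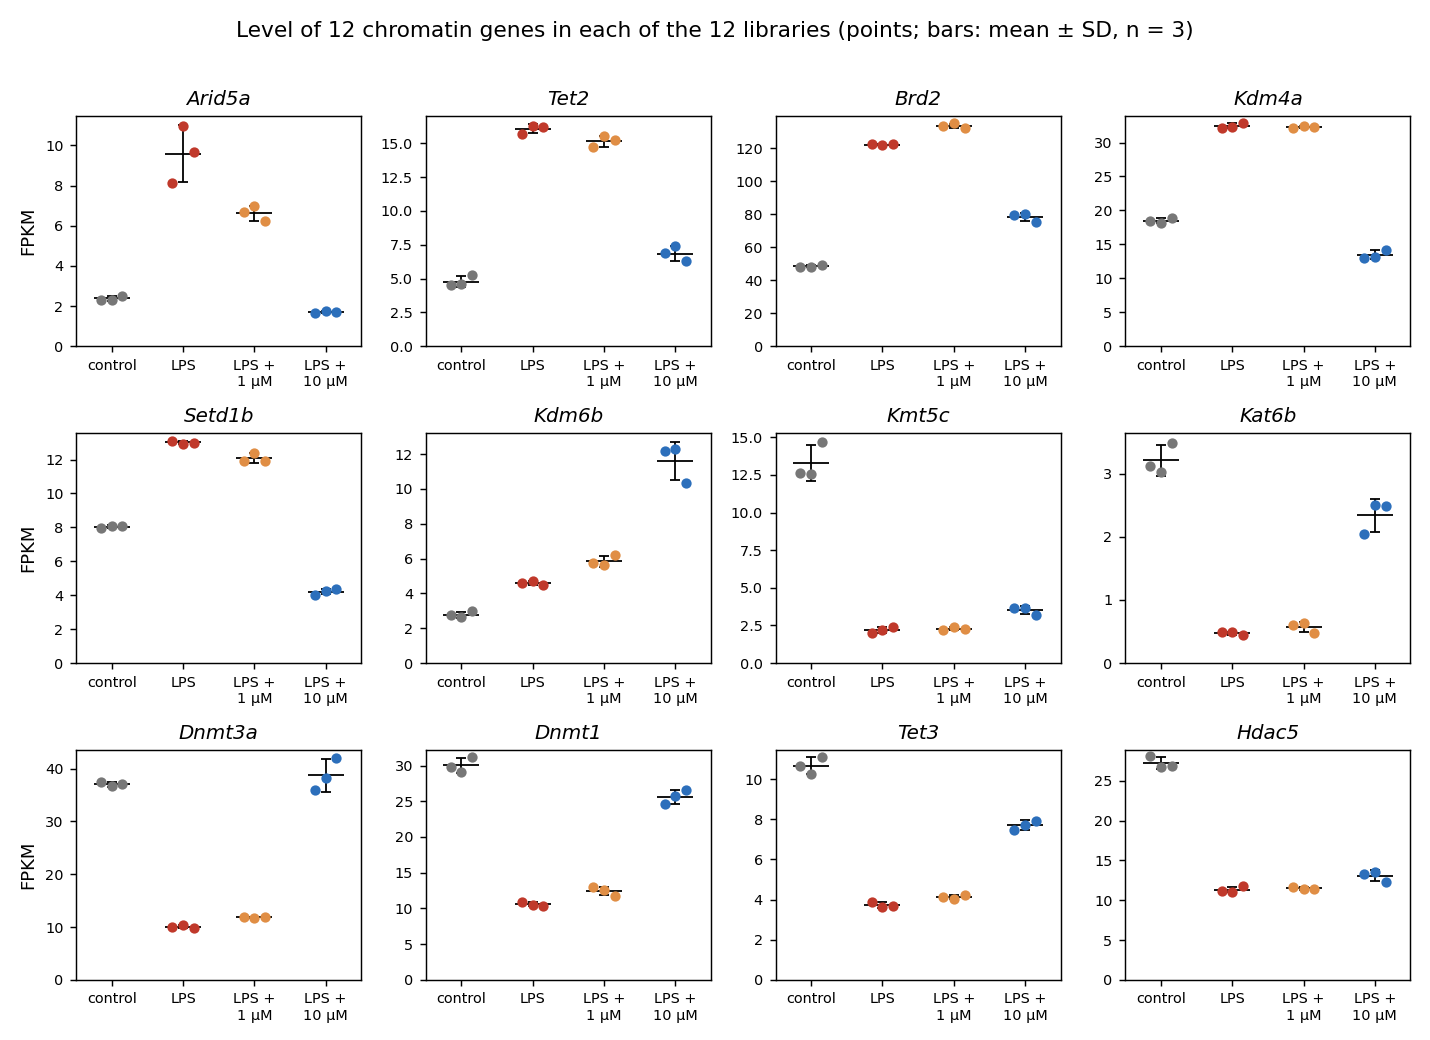
FPKM (y axis, from 0) of 12 members in the 12 libraries; each point is 1 library, and the bar and whiskers are the mean and SD of the 3 libraries of a group (control, LPS, LPS with 1 μM and LPS with 10 μM cpTLR-i). In most panels the 1 μM libraries sit near the LPS libraries and the 10 μM libraries stand apart from them. Kdm6b is highest with 10 μM, Setd1b is lowest with 10 μM, and Kmt5c and Hdac5 stay low in all 9 LPS-treated libraries.

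The difference between the doses was tested directly. The genes higher with 10 μM than with 1 μM by the most were Dnmt3a (1.69 ± 0.05 SE, adjusted p = 3.5e-12), Kat6b (1.66 ± 0.10 SE, adjusted p = 6.9e-09) and Kat14 (1.11 ± 0.06 SE, adjusted p = 1.5e-09). Those lower by the most were Arid5a (-1.81 ± 0.09 SE, adjusted p = 8.7e-10), Setd1b (-1.47 ± 0.04 SE, adjusted p = 2.6e-12) and Kdm4a (-1.25 ± 0.04 SE, adjusted p = 6e-12). Hdac4, Kdm3a, Kdm6b, Dnmt1, Tet3, Kmt2c and Setd4 were also higher with 10 μM (1.07, 0.90, 0.96, 1.03, 0.87, 0.90 and 0.82), and Tet2, Arid1a, Arid5b, Brd2 and Arid4a lower (-1.12, -0.84, -0.78, -0.77 and -0.68). Without the first 10 μM library the Arid4a value was -0.58 and no longer called. Kmt5c (0.57 ± 0.08 SE, adjusted p = 2.4e-05) and Hdac5 (0.18 ± 0.04 SE, adjusted p = 0.0021) did not pass the fold minimum. Both doses preceded LPS by the same 1 h, and the labels give no dose between them.

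Ratios between related genes within a library depend little on how that library was scaled, since a scaling factor cancels apart from the pseudocount of 0.25. Of 22 pairs, 21 could be formed (Dnmt3b was too low), which over 5 comparisons gave 105 exact permutation tests. With 3 libraries in each group the smallest possible two-sided p is 0.1, so no test could reach 0.05, and the smallest adjusted p was 0.111. The log2 ratio of Tet2 to Tet3 was -1.20, -1.11 and -1.04 in the control libraries, 1.95, 2.09 and 2.07 after LPS, 1.78, 1.89 and 1.80 at the 1 μM dose and -0.11, -0.07 and -0.32 at the 10 μM dose. Tet3 was thus the more abundant in control and Tet2 the more abundant with LPS, and with 10 μM the 2 were nearly level. Setd1b to Setd1a gave 0.01, 0.09 and 0.13, then 1.39, 1.34 and 1.32, 0.92, 1.01 and 0.93 and -0.81, -0.82 and -0.74, in the same order of groups. Setd1b was the higher of the pair with LPS, and the lower with 10 μM. For Kdm6b to Kdm6a the values were -0.77, -0.75 and -0.66, then 1.07, 0.98 and 0.94, 1.31, 1.30 and 1.36 and 2.01, 1.77 and 1.47. This ratio did not return toward control with 10 μM. The ratio of Kat6a to Kat6b was 1.63, 1.58 and 1.55, then 3.89, 3.95 and 4.03, 3.62, 3.50 and 3.71 and 1.82, 1.67 and 1.70. That of Arid1b to Arid1a was -0.82, -0.88 and -0.89, then -2.68, -2.54 and -2.67, -2.43, -2.55 and -2.17 and -1.19, -1.31 and -1.09. In both pairs the 10 μM libraries lay between LPS and control, nearer to control. Kmt2c to Kmt2d had mean log2 ratios of -0.39, -1.46, -1.63 and -0.70 in the same order. The libraries of the groups compared did not overlap for all 21 pairs in LPS against control, 14 in 1 μM against LPS, and 20 in each of the other 3 comparisons. The share of unrelated gene pairs without overlap was not computed, so these counts show nothing particular to related genes. By adjusted p without the fold minimum, 17.9% of all tested genes were higher and 68.5% lower with LPS.

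**Figure D4:**
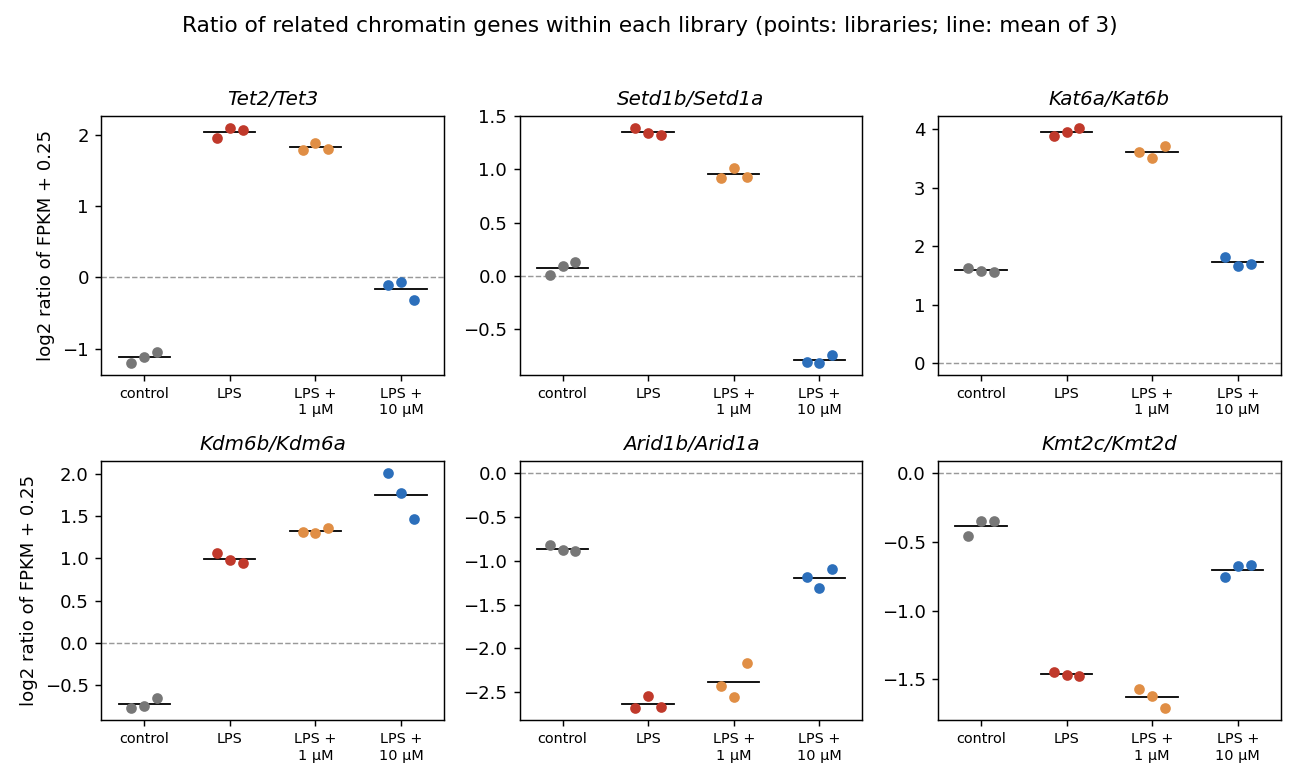
Log2 ratio of FPKM + 0.25 (y axis) between 2 related genes in each of the 12 libraries, by group; points are libraries and lines the means of 3, and the dashed line marks equal levels. The Tet2/Tet3 and Kdm6b/Kdm6a ratios cross the line between control and LPS, and with 10 μM the Setd1b/Setd1a ratio lies below its control value while the Kdm6b/Kdm6a ratio lies above its LPS value.

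Several other core enzymes gave no call as deposited. Kdm1a, the LSD1 demethylase of corepressor complexes, was at 12.2 ± 0.43 FPKM in control, 13.2 ± 0.60 with LPS, 14.5 ± 0.15 with 1 μM and 12.8 ± 0.52 with 10 μM (SD, n = 3). Kmt2a and Kmt2d, methyltransferases of promoters and enhancers, gave log2 fold changes of 0.06 and -0.18 with LPS, and Setd2, which marks transcribed gene bodies, gave -0.46. Smarcb1, a core BAF subunit, gave -0.30 with LPS and 0.20 for 10 μM against LPS. None of these 5 was called in any comparison as deposited. After median-ratio scaling Kmt2a was called lower with 10 μM than with LPS, and lower than with 1 μM. Of the partner genes of the pairs, Arid4b, Chd2, Hdac9, Kdm5a and Kmt2b gave -0.27, 0.04, -0.42, -0.30 and 0.16 with LPS and were not called there. Kat2a, an acetyltransferase of the SAGA and ATAC complexes, fell with LPS by 0.75, a call lost after median-ratio scaling. Its partner Kat2b was called only for 10 μM against control (-0.60 ± 0.07 SE, adjusted p = 9.5e-06), which was lost likewise.

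A further 113 chromatin genes outside the chosen families were listed by function (Polycomb and COMPASS subunits, sirtuins, corepressors, arginine methyltransferases and others), of which 110 were tested. With LPS 9 rose (8.18%) and 49 fell (44.5%), with a median log2 fold change of -0.50, beside 11% and 35.8% of all tested genes. With 10 μM cpTLR-i against LPS 30 were higher (27.3%) and 7 lower (6.36%), beside 21.5% and 9.44%. Between the doses 20 were higher (18.2%) and 5 lower (4.55%), beside 15.9% and 9.05%, and with 10 μM against control 7 (6.36%) and 18 (16.4%), beside 8.57% and 17.1%. With 1 μM against LPS limma called 0 and 0, also at an unadjusted p under 0.05 with the fold minimum. Jarid2, which recruits the Polycomb methyltransferase complex, was at 3.49 ± 0.087 FPKM in control, 12.4 ± 0.38 with LPS, 10.8 ± 0.21 with 1 μM and 4.96 ± 0.34 with 10 μM. It rose with LPS (1.75) and was lower with 10 μM (-1.28). Dot1l, the methyltransferase of lysine 79 of histone H3, was at 15.6 ± 0.49 FPKM in control, 25.6 ± 0.24 with LPS, 29.3 ± 0.21 with 1 μM and 50.9 ± 0.94 with 10 μM. Like Kdm6b, it rose with LPS (0.71) and was higher still with 10 μM (0.99). Cbx8, a Polycomb reader of methylated histones, was at 2.67 ± 0.59 FPKM in control and 0.047 ± 0.031 with LPS. It was at 0.076 ± 0.027 with 1 μM and 0.41 ± 0.16 with 10 μM. Cbx8 fell with LPS (-3.28), and with 10 μM was above LPS (1.13) but remained below control (-2.15). Its LPS and 1 μM means lay under the pseudocount, so the size of these changes depends on it. Ercc6, a remodeler of DNA repair, was at 3.61 ± 0.26 FPKM in control, 1.32 ± 0.042 with LPS, 1.92 ± 0.043 with 1 μM and 10.0 ± 0.77 with 10 μM. It fell with LPS (-1.30) and with 10 μM was above both LPS (2.71) and control (1.41). These 4 genes were chosen after their values were seen.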

How the data were processed

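RNA of 12 BMDM libraries (4 groups of 3) was sequenced. Per the labels and methods, the authors aligned reads with HISAT2 to mm10, assembled them with StringTie and deposited FPKM and TPM for 23959 genes, both already scaled within each library. The table also holds gene annotation. The methods name a standard mRNA kit and the labels a stranded one. Whether counting used strand is not given in the sources used here. The authors' count-based test (DESeq2) was not run, since counts were not used here.

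Gene symbols and biotypes came from the table, positions from RefSeq (GRCm38.p6) and promoters from RefSeq. FPKM were tested as log2(FPKM + 0.25) in 1 limma fit (3.58.1, R 4.3.3; moderated with trend, two-sided) over all 12 libraries and the 12315 genes that reached 0.5 FPKM in 3 or more of them, with Benjamini-Hochberg adjustment over all of them. Calls needed adjusted p under 0.05 and more than 1.5-fold, the minimum of the methods. On simulated data this recovered 92% of 2-fold and 98% of 4-fold changes among 12315 genes in LPS against control, with 1 false call. The simulation changed 100 genes of each size, as many up as down, with no shift in scale. It therefore does not measure errors that come from scaling, where the real calls were 1355 higher and 4405 lower. Ratios of related genes were compared by exact permutation. Named genes were the 10 highest and 10 lowest called members per comparison with at least 1 FPKM and no overlap between libraries, for the 1 μM dose the 3 highest and 3 lowest, all core members of each role, and both genes of each pair. A core gene that this rule takes in is not reported here. Members, lists and this rule were chosen with earlier results of these data known. Alternatives were TPM, pseudocounts of 0.1 and 1, other filters, median-ratio and quantile scaling, fits of the compared groups only, a replicate block, no fold minimum and each library left out.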

Additional observations from a re-analysis of the deposited data

Results flagged for a closer look

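Dnmt3aos, a long noncoding RNA that by its name lies opposite Dnmt3a and was outside every comparison above because it is not protein coding, had a mean of 13.8 FPKM in the libraries with LPS and 10 μM cpTLR-i, above its level in the control libraries. It was at 12.2 to 15.9 FPKM there, 7.06 to 9.18 in control, 3.14 to 3.85 with LPS and 3.45 to 4.33 with 1 μM cpTLR-i (lowest and highest of 3 libraries). The 10 μM libraries did not overlap with those of any other group.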

How the results depend on the processing

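With median-ratio scaling, 15 members rose and 24 fell with LPS against control (15.8% and 25.3%, beside 16% and 20.1% of all genes). There 14 were lower at 10 μM than after LPS alone (14.7%, beside 12.1%). Another 6 were higher with 10 μM than in control (6.32%, beside 11.2%). With quantile normalization, 22 fell with LPS, 12 were higher with 10 μM than with LPS, 10 were higher with 10 μM than with 1 μM, and 6 were higher and 12 lower with 10 μM than in control. TPM and a pseudocount of 0.1 each gave 5 higher with 10 μM than in control (5.15% and 5.26%, beside 8.74% and 8.96% of all genes). A pseudocount of 1 gave 10 higher with 10 μM than with 1 μM (10.5%, beside 10.2%). Without the fold minimum, 17 rose with LPS (17.9%, the same share as for all genes). The 1 μM dose then had 21 above LPS and 5 below (22.1% and 5.26%, beside 14.6% and 4.36%). The 10 μM dose had 57 above LPS and 20 below (60% and 21.1%, beside 56.2% and 17.7%). Between the doses the counts were 57 and 21 (60% and 22.1%, beside 49.7% and 18.1%). Relative to control, 13 members rose at 10 μM and 64 fell (13.7% and 67.4%, beside 21.7% and 49.7%). The cause of these shifts was not tested, beyond the scale or threshold that each setting changes.

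With 1 library left out at a time, members called lower with 1 μM than with LPS ran from 0 to 1 (Arid5a, without the first LPS library), and those higher with 10 μM than in control from 3 to 5 (5 without the first 10 μM library). The 67 called differences with the highest or lowest fold change in a comparison had 1071 values under the alternatives, of which 1061 kept their call, 10 lost it and 0 reversed. The 10 belonged to Kdm6b, Kdm7a, Arid4a, Setd4, Kmt5a and Brd2. Among all called members losses were more common. Median-ratio scaling ended 23 of 47 falls with LPS, 6 of 20 calls of higher with 10 μM than with LPS, 5 of 16 of higher with 10 μM than with 1 μM and 5 of 19 of lower with 10 μM than in control. Over all tested genes, falls with LPS went from 4405 to 2472 with that scaling. The other counts, in the same order, went from 2649 to 1699, 1964 to 1389 and 2108 to 1361. Losses gene by gene were not counted over all genes. The 105 paralogue ratio differences had 840 values under the alternatives. Of these, 792 were counted as unchanged, because they moved by less than 1 SD or because the groups overlapped as reported. The other 48 moved further, and 0 reversed among the differences without overlap. Reversal was not counted where the groups overlapped.

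Same-numbered libraries did not deviate together (r = -0.165 to 0.153 over 18 pairs of libraries, of which 1 was over 0.1), so the numbers do not pair them. A fit with the replicate number as a block gave the same counts of members: 7 higher and 47 lower with LPS, 0 and 0 for 1 μM and 20 and 9 for 10 μM against LPS, 16 and 8 between the doses and 3 and 19 for 10 μM against control. Read depth is unknown, so low members such as Setd4 and Brd3os rest on an unknown number of reads.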
